A study of Mus musculus with 10 samples.

Results

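The genes described here are 8 that are used to recognise radial glia, the neural stem cells of the embryonic brain: 2 receptors (Egfr and Ednrb), 1 matrix protein (Tnc), 1 surface glycoprotein (Pdpn), 1 lipid-binding protein (Fabp7) and 3 transcription factors (Sox2, Sox9 and Pax6). They were taken by name, with earlier results of these data known, as 8 of the 28059 genes counted. All 8 passed the filter on low counts that left 18671 genes for testing. Because of that choice, the shares of all genes given below beside the 8 are descriptions. Messenger RNA was sequenced from E18.5 mouse brains (late gestation), after the olfactory bulbs had been taken off, in 10 libraries. The labels give 5 genotypes with 2 libraries each. The control is heterozygous for COP1, so that it too carries a disrupted COP1 allele. KO lacks COP1, DKO lacks COP1 and cJun, TKO lacks COP1, cJun and ETV1, and QKO lacks COP1, cJun, ETV1 and ETV5. The labels name no Cre driver, promoter, litter or sex, and leave unsaid whether a genotype's libraries are from different embryos. What the p-values weigh is thus the spread seen between these libraries, which may be technical in part.

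Radial glia line the ventricles, divide to give neurons, and later give astrocytes, oligodendrocyte precursors and ependymal cells. SOX2, SOX9 and PAX6 act in their nuclei, and FABP7 carries fatty acids in their cytoplasm. EGFR and EDNRB receive growth signals on their surface, and tenascin-C lies in the matrix around them. Late in gestation, EGFR marks progenitors that turn to making glia. COP1 is part of a ubiquitin ligase that marks cJun and several ETS factors, ETV1 and ETV5 among them, for degradation. None of the 8 genes is particular to radial glia at this age: astrocytes and their precursors keep several of them, PAX6 is made in cerebellar granule cell precursors, and podoplanin also in choroid plexus and meninges.

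The libraries held between 31996944 and 54594523 counts. Jun was at 14.99 to 16.1 nRPKM (RPKM, reads scaled for gene length and depth, adjusted by the authors with a size factor per library) in control and KO and at 1.44 to 2.94 in the other 6 libraries, as labelled. Cop1 was at 4.74 to 4.9995 nRPKM in control and 3.57 to 4.39 in the other 8 libraries. Etv1 was at 4.82 to 4.95 in control, 1.76 to 2.29 in KO and DKO, and 3.67 to 4.71 in the libraries labelled TKO and QKO. Etv5 was at 6.72 to 7.24 in control, 2.65 to 2.68 in KO, 3.08 to 3.25 in DKO, 3.75 to 3.93 in TKO and 3.97 to 4.11 in QKO, so that it was no lower in the libraries labelled as lacking it than in KO. Both fell in KO vs control (edgeR adjusted p = 0.000455 for Etv1 and 9.35e-06 for Etv5). A deletion inside a gene can leave its total count high, so the labels are checked here by Jun alone, and directions below rest on them. Control 1 and DKO 1 had the high Xist of female tissue (1840 and 1464 CPM, counts scaled to library size, against at most 1.94 in the other 8), so of the comparisons below QKO vs TKO alone is balanced in this respect. Summed nRPKM of 11 HOX genes, which mark the caudal hindbrain, was between 13.4 and 18.3 in control, 0.737 and 1.76 in KO, 1.87 and 3.69 in DKO, 6.11 and 8.13 in TKO, and 2.20 and 13.7 in QKO. An alternative fit below takes the mean log2 CPM of these genes as a covariate. Its slope comes from differences between the 2 libraries of a genotype, the largest in QKO (-0.134 and -3.00 relative to control). KO was at -3.02 and -4.14, so that fit cannot separate HOX level from genotype. Neuron markers summed to between 1429 and 1627 nRPKM in all 10 libraries. In a bulk library, fewer cells of a type and less RNA per cell cannot be told apart.

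The 8 genes spanned a wide range of levels. Fabp7 was by far the most abundant, at a mean of 578 nRPKM over the 10 libraries, followed by Tnc (45.2), Sox2 (33.3), Ednrb (32.3), Sox9 (11.6), Pdpn (9.40), Pax6 (8.80) and Egfr (5.35). Each was well counted, the fewest being 425 counts of Pdpn in DKO 2. The highest library exceeded the lowest 2.04-fold for Tnc, 1.99-fold for Egfr and 1.78-fold for Ednrb, but 1.28-fold for Pax6 and 1.32-fold for Fabp7.

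**Figure D1:**
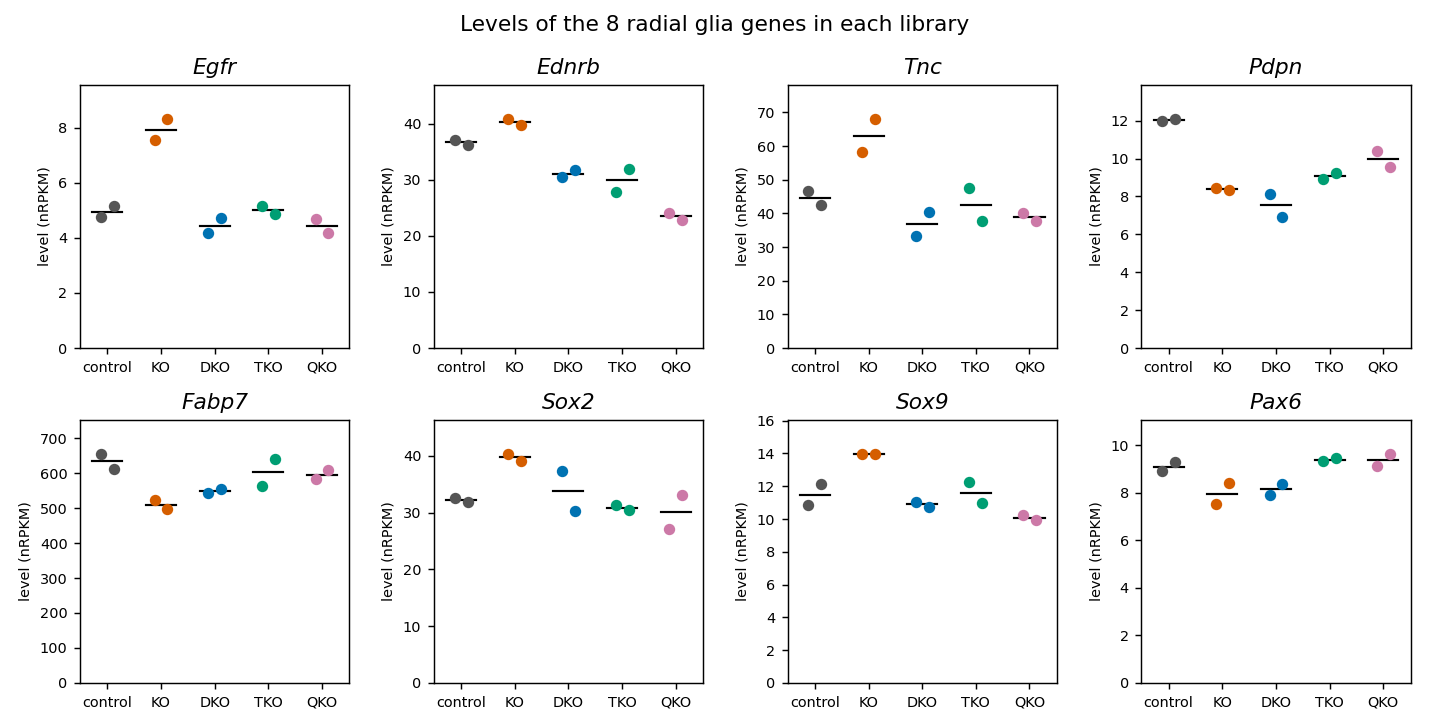
Level of each of the 8 genes in nRPKM (vertical axes, from 0) in the 5 genotypes, with 1 point per library and a bar at the mean of the 2 libraries of a genotype. Egfr, Tnc and Sox9 are highest in both KO libraries, Pdpn is highest in both control libraries, and Ednrb is lowest in both QKO libraries.

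Egfr, the receptor for EGF and TGF-alpha, was higher in KO than in every other genotype. It stood at 4.74 and 5.16 nRPKM in control, 7.55 and 8.30 in KO, 4.17 and 4.70 in DKO, 5.15 and 4.87 in TKO, and 4.67 and 4.17 in QKO. Both KO libraries lay above all 8 others, which spanned 4.17 to 5.16. Egfr rose 1.61-fold in KO vs control (log2 0.69 ± 0.09, standard error, from 2 libraries against 2, edgeR adjusted p = 0.00562). In DKO vs KO it fell 1.80-fold (log2 -0.85 ± 0.09, edgeR adjusted p = 0.00106). Against the mean of the 3 genotypes that also lack cJun (DKO, TKO and QKO, 6 libraries), the difference from KO was -0.79 ± 0.07 (edgeR adjusted p = 0.000202). Those 3 genotypes differed from control by -0.10 ± 0.07, a 95% interval of -0.26 to 0.06. The rise in KO did not pass without control 1 (edgeR adjusted p = 0.104) or without KO 2 (0.0768), while the fall in DKO passed in all 10 alternatives run.

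Tnc, the gene of tenascin-C, was also highest in KO, with the other 4 genotypes in another order than for Egfr. Its levels were 46.5 and 42.4 nRPKM in control, 58.1 and 67.95 in KO, 33.2 and 40.5 in DKO, 47.5 and 37.7 in TKO, and 40.3 and 37.9 in QKO. The KO libraries were again the highest of the 10, and control did not overlap DKO or QKO but did overlap TKO. Tnc was 1.43-fold higher in KO than in control, log2 0.51 ± 0.12, which did not pass (edgeR adjusted p = 0.114, and DESeq2 adjusted p = 0.00146). It fell 1.72-fold in DKO vs KO (log2 -0.78 ± 0.12, edgeR adjusted p = 0.0171), and by 0.68 ± 0.10 on the log2 scale from KO to the mean of DKO, TKO and QKO (edgeR adjusted p = 0.00647). The fall in DKO did not pass without KO 2 (edgeR adjusted p = 0.236), without DKO 1 (0.121) or without both libraries with high Xist (0.132), and the fall in the mean of 3 genotypes did not pass without KO 2 (0.182). The mean of those 3 genotypes was at -0.17 ± 0.10 against control, a 95% interval of -0.39 to 0.05.

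Since cJun is a subunit of AP-1, the 250 bases upstream of the annotated starts were searched on both strands for the AP-1 letters TGANTCA, the CRE letters TGACGTCA that Jun-ATF pairs bind, the ETS core CCGGAA, the RBPJ letters GTGGGAA of Notch signalling and the POU octamer ATGCAAAT. The sequences are from RefSeq, assembly GRCm38.p6, whose promoter table holds 7 of the 8 genes with 9 start sites, and Sox9 is the other. Egfr and Tnc are shown because they had the largest falls of the 8 in DKO vs KO and hold matches, and Pax6 because it holds the CRE letters. Capitals mark matches, read 5′ to 3′ towards the gene. They lie at chr11:16751953-16752202 (plus strand, Egfr), chr4:64046937-64047186 (minus strand, the more downstream of 2 Tnc starts) and chr2:105668646-105668895 (plus strand, the first of 2 Pax6 starts).
Egfr: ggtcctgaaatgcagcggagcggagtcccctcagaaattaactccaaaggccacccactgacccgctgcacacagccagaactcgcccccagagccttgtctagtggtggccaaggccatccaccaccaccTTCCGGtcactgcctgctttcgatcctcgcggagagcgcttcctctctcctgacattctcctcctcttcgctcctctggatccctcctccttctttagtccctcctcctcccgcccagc
Tnc: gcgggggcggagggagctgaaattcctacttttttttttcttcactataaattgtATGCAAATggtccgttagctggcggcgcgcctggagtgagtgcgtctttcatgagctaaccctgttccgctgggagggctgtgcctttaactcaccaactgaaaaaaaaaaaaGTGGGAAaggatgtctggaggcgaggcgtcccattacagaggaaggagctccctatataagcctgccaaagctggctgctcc
Pax6: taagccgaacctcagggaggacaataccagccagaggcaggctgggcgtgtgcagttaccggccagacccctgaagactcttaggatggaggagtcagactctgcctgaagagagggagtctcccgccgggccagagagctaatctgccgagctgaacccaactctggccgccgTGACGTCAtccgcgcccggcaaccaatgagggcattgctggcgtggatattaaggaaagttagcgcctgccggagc
The Egfr window holds the ETS core on the minus strand, 119 to 114 bases upstream of the start. The Tnc window holds the octamer at 195 to 188 bases and the RBPJ letters at 82 to 76 bases upstream. The octamer is also in the window of the other Tnc start, and the ETS core in that of Sox2, 38 to 33 bases upstream. Pax6 holds the CRE letters 76 to 69 bases upstream. The windows of Ednrb, which also fell in DKO, and of Pdpn and Fabp7 held none of the 5 motifs. The AP-1 letters did not occur in these 9 windows, and occur in 6.75% of the 32851 promoters in the table. The other shares were 1.55% for CRE, 12% for the ETS core, 5.42% for RBPJ and 1.6% for the octamer. A match of letters is not a bound site, and an absence of letters applies to these windows alone.

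Ednrb, the endothelin B receptor, differed from Egfr in its steps. Its levels were 37.0 and 36.2 nRPKM in control, 40.8 and 39.7 in KO, 30.4 and 31.8 in DKO, 27.9 and 31.98 in TKO, and 24.0 and 22.9 in QKO. Control and KO did not overlap any of the 6 libraries without cJun, and the QKO libraries were the lowest of the 10. In KO vs control Ednrb was at 0.15 ± 0.07, which did not pass (edgeR adjusted p = 0.503). It fell 1.30-fold in DKO vs KO (log2 -0.38 ± 0.07, edgeR adjusted p = 0.0413), and 1.45-fold in the mean of DKO, TKO and QKO (log2 -0.53 ± 0.06, edgeR adjusted p = 0.000716). It also fell below control in the mean of those 3 genotypes, by 0.39 ± 0.06 on the log2 scale (edgeR adjusted p = 0.0268). A further step in QKO vs TKO, -0.36 ± 0.07, did not pass (edgeR adjusted p = 0.0901, and DESeq2 adjusted p = 0.00460). QKO alone, compared with control after these levels had been seen, was 1.56-fold lower (log2 -0.64 ± 0.07, edgeR adjusted p = 0.00252), and that difference passed in all 10 alternatives. The fall of the 3 genotypes below KO passed in all 14 alternatives. The fall in DKO vs KO was lost in each of the 4 leave-one-out fits (edgeR adjusted p of 0.0833 to 0.273), with the compared groups alone (0.0645) and without both libraries with high Xist (0.394), and the fall of the 3 genotypes below control did not pass without control 1, without control 2, without both libraries with high Xist or with the HOX mean as a covariate.

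Pdpn, which encodes the mucin-type glycoprotein podoplanin, was lower in KO than in control, where Egfr, Tnc and Ednrb were not. Its levels were 11.99 and 12.1 nRPKM in control, 8.43 and 8.35 in KO, 8.14 and 6.92 in DKO, 8.92 and 9.25 in TKO, and 10.4 and 9.55 in QKO. Both control libraries lay above all 8 libraries without COP1. It fell 1.42-fold in KO vs control (log2 -0.51 ± 0.09, edgeR adjusted p = 0.0353). DKO stood at -0.16 ± 0.09 against KO (edgeR adjusted p = 0.466), and the mean of DKO, TKO and QKO at 0.06 ± 0.08 against KO, a 95% interval of -0.10 to 0.23. Against control that mean was 1.36-fold lower (log2 -0.45 ± 0.07, edgeR adjusted p = 0.0491). The fall in KO had a log2 value between -0.52 and -0.44 in all 10 alternatives, but did not pass in any of the 4 that leave out 1 library (edgeR adjusted p of 0.183 to 0.247), without both libraries with high Xist (0.0903) or with the HOX covariate (0.232). The 3-genotype fall did not pass in 7 of 14, among them those without control 1, control 2, TKO 1 or TKO 2.

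Markers of the other tissues that make podoplanin were read beside it. Choroid plexus markers summed to between 499 and 599 nRPKM in control and between 505 and 608 in KO, and edgeR called 0 of 5 in KO vs control (0 at an unadjusted p under 0.05, and 0 by DESeq2). Meningeal markers summed to between 107.6 and 108.7 in control and between 101 and 104 in KO. Of these 7 edgeR called 0 (1 lower at an unadjusted p under 0.05, and 0 by DESeq2), with a median log2 value of -0.18. No gene of either list was at 0 in both libraries of a genotype. The part of either tissue in the level of Pdpn was not tested.

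Fabp7, the brain fatty acid-binding protein of radial glial cytoplasm, was lowest in KO. It stood at 655 and 612 nRPKM in control, 523 and 497 in KO, 543 and 554 in DKO, 564 and 639.9 in TKO, and 584 and 608 in QKO. The KO libraries were the lowest of the 10 and control overlapped TKO only. The difference in KO vs control, -0.30 ± 0.08, did not pass (edgeR adjusted p = 0.128, and called by DESeq2). The mean of DKO, TKO and QKO was at 0.18 ± 0.06 against KO (edgeR adjusted p = 0.27) and at -0.12 ± 0.06 against control, a 95% interval of -0.25 to 0.01.

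Sox9, a transcription factor of the gliogenic switch, was nearly equal in the 2 KO libraries. Its levels were 10.8 and 12.1 nRPKM in control, 13.97 and 13.95 in KO, 11.1 and 10.7 in DKO, 12.3 and 10.9 in TKO, and 10.2 and 9.92 in QKO. The KO libraries were the highest of the 10. KO vs control was at 0.29 ± 0.07 (edgeR adjusted p = 0.136) and DKO vs KO at -0.36 ± 0.07 (edgeR adjusted p = 0.065), neither of which passed. From KO to the mean of DKO, TKO and QKO, Sox9 fell 1.29-fold (log2 -0.37 ± 0.06, edgeR adjusted p = 0.0122). That fall passed in 12 of 14 alternatives, not without KO 1 (edgeR adjusted p = 0.202) or without KO 2 (0.184).

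Sox2, which maintains neural stem cells, was also highest in KO, but DKO and QKO were spread widely. It was at 32.6 and 31.9 nRPKM in control, 40.3 and 39.1 in KO, 37.3 and 30.2 in DKO, 31.3 and 30.4 in TKO, and 27.1 and 33.0 in QKO. Its log2 difference was 0.31 ± 0.10 in KO vs control (edgeR adjusted p = 0.286) and -0.34 ± 0.08 in the mean of DKO, TKO and QKO vs KO (edgeR adjusted p = 0.0978). The first of these was -0.02 with the HOX covariate, and the second was called in 5 of 14 alternatives. Against control, the mean of the 3 genotypes was at -0.03 ± 0.08, a 95% interval of -0.21 to 0.15.

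Pax6, a factor of cortical radial glia and of their neurogenic divisions, varied least. Its levels were 8.90 and 9.31 nRPKM in control, 7.51 and 8.40 in KO, 7.93 and 8.37 in DKO, 9.33 and 9.47 in TKO, and 9.13 and 9.64 in QKO. KO and DKO lay below the other 3 genotypes without overlap. The differences were -0.19 ± 0.07 in KO vs control, 0.03 ± 0.07 in DKO vs KO and 0.21 ± 0.07 in TKO vs DKO, and did not pass (edgeR adjusted p of 0.413, 0.893 and 0.351). The mean of DKO, TKO and QKO differed from control by -0.02 ± 0.06, a 95% interval of -0.15 to 0.11. Of 7 cerebellar granule lineage markers, which share cells with Pax6, 1 fell in KO vs control, Atoh1 (-1.29 ± 0.21), a gene at 0.354 to 1.02 nRPKM. All 7 log2 values were below 0 (3 lower at an unadjusted p under 0.05, and 2 lower by DESeq2). The summed level was between 94.2 and 95.7 nRPKM in control and between 84.5 and 85.4 in KO. The part of these cells in the level of Pax6 was not tested.

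**Figure D2:**
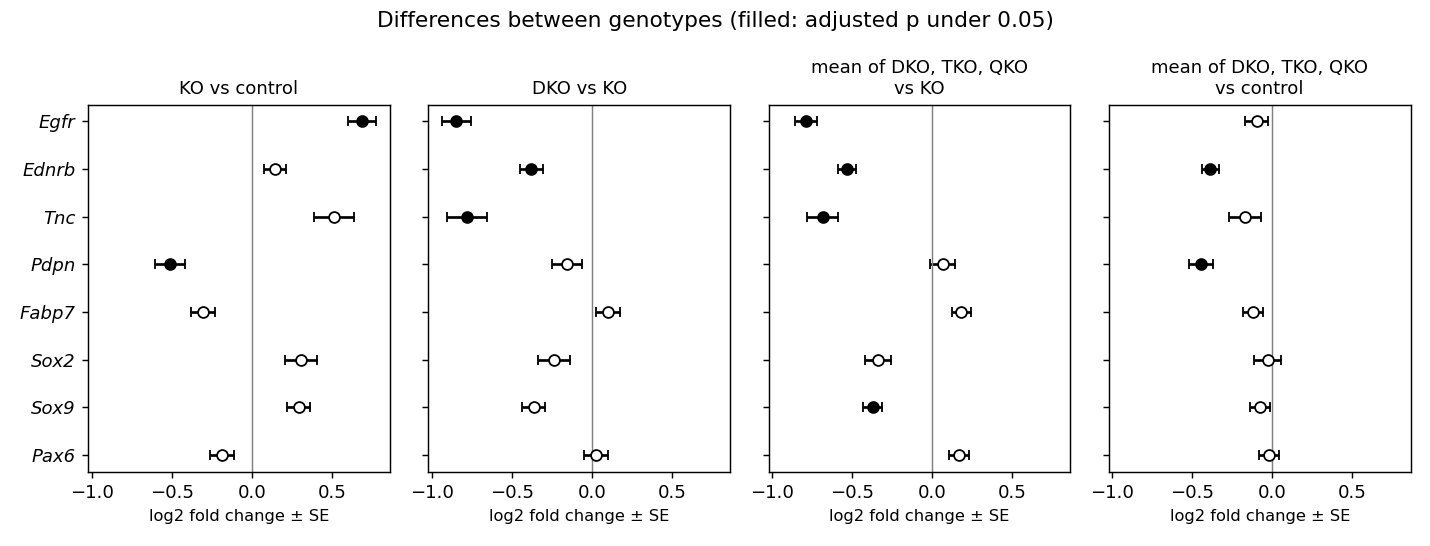
Log2 fold change of each gene (points, with bars of 1 standard error) in 4 comparisons, with filled points for edgeR adjusted p under 0.05 over all genes. Filled points are Egfr and Pdpn in KO vs control, Egfr, Ednrb and Tnc in DKO vs KO, those 3 and Sox9 in the mean of 3 genotypes vs KO, and Ednrb and Pdpn in that mean vs control.

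KO vs control asks what the loss of COP1 changes. Of the 8 genes 1 rose and 1 fell, where 0.734% of all genes tested were called, 0.503% higher and 0.23% lower. The 8 had a median log2 value of 0.22, against 0.01 over all genes, and 7 of them had an unadjusted p under 0.05, as did 10.4% of all genes. In all 8 the KO libraries did not overlap control, 5 higher and 3 lower, where 24.5% of all genes were higher and 25% lower in this way. All genes called numbered 137, and as many as 691 under an alternative. Counts of the 8 under alternatives are therefore to be read beside a total that changed as well. DESeq2 and no low-count filter called 4 and a fit on control and KO alone called 6, while the HOX covariate called 1, leaving out both libraries with high Xist 1, and leaving out 1 library 0 (without control 1 or KO 2) to 1.

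DKO vs KO asks what the added loss of cJun changes. Egfr, Ednrb and Tnc fell, 3 of the 8, where 0.568% of all genes were called, 0.198% higher and 0.37% lower, and 5 had an unadjusted p under 0.05 against 13.8% of all. DESeq2, no low-count filter and the HOX covariate each called 4, the compared groups alone 2, leaving out both libraries with high Xist 1, and leaving out 1 library 1 (without KO 2 or DKO 1) to 2. The median of the 8 was -0.30 and that of all genes -0.00183. All genes called numbered 106, and as many as 401 under an alternative, so the total changed here too. This comparison shares the KO libraries with KO vs control, so that a high KO value enters both with opposite sign. The mean of DKO, TKO and QKO vs KO draws on the same KO libraries, and there 4 of the 8 fell, with a median of -0.35, where 0.98% of all genes were called, 0.273% higher and 0.707% lower. In it 7 of the 8 had an unadjusted p under 0.05 (2 higher and 5 lower), as did 11.8% of all genes. In 5 of the 8 all 6 libraries lay below KO and in 1, Fabp7, above it, where 5.7% of all genes were lower and 6.1% higher in this way.

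Against control, the mean of DKO, TKO and QKO had 2 of the 8 lower (Ednrb and Pdpn), where 0.166% of all genes were called, 0.102% higher and 0.0643% lower. The same 2 genes had all 6 libraries below both controls, where 4.55% of all genes were lower and 3.7% higher in this way. The 8 log2 values were all below 0, between -0.45 and -0.02, with a median of -0.11, against 0.00159 over all genes. They share the same 2 control libraries, and those of Sox9, Pax6 and Sox2 crossed 0 when 1 library was left out. Of the 8, 2 had an unadjusted p under 0.05, as did 8.09% of all genes, and a mean of 3 genotypes hides differences between them, as for Ednrb. In QKO vs control alone 1 of the 8, Ednrb, was lower, where 0.236% of all genes were called, 0.134% higher and 0.102% lower.

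The added losses of ETV1 and ETV5 gave no further calls among the 8. In TKO vs DKO edgeR called 0 of the 8 (2 higher at an unadjusted p under 0.05, Pdpn at 0.27 ± 0.09 and Pax6 at 0.21 ± 0.07, and 0 by DESeq2), where 0.0911% of all genes were called, 0.0214% higher and 0.0696% lower. In QKO vs TKO edgeR called 0 (2 lower at an unadjusted p under 0.05, Ednrb and Sox9 at -0.21 ± 0.07, and 1 by DESeq2, Ednrb), where 0.289% of all genes were called, 0.118% higher and 0.171% lower. An unadjusted p under 0.05 was reached by 11.9% of all genes in TKO vs DKO and by 5.78% in QKO vs TKO. The 95% interval of Egfr was -0.02 to 0.38 in the first and -0.39 to 0.01 in the second.

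Egfr, Tnc and Sox9 varied together over the 10 libraries, and less closely without KO. Over 10 libraries Pearson's r of log2 CPM was 0.941 for Egfr and Tnc and 0.919 for Egfr and Sox9, and over the 8 libraries without KO it was 0.732 and 0.734. For Tnc and Sox9 it was 0.84 over 10 libraries and 0.441 over 8. For Egfr and Pdpn r was -0.184 over 10 libraries and 0.317 over 8. The 2 libraries of KO stand apart from the rest on these genes, and the libraries share genotypes and scaling, so these values are descriptions.

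**Figure D3:**
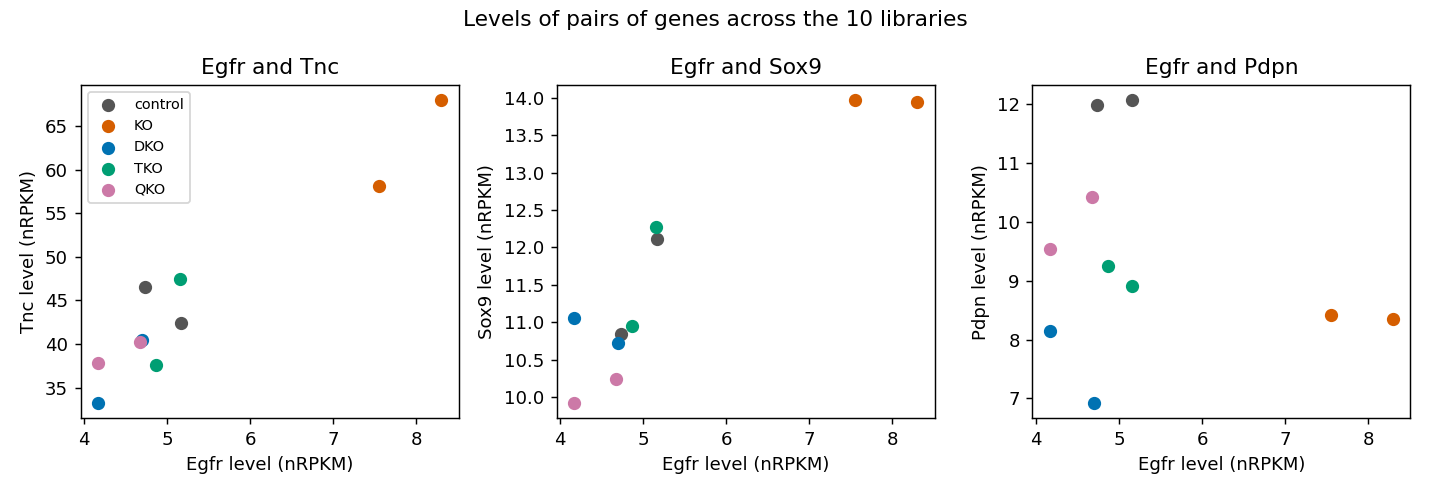
Levels in nRPKM of Egfr (horizontal axes) against Tnc, Sox9 and Pdpn (vertical axes), with 1 point per library coloured by genotype. The axes do not start at 0. The 2 KO libraries sit apart at Egfr levels of 7.55 and 8.30, with the highest Tnc and Sox9, while Pdpn separates control (11.99 and 12.1) from the 8 other libraries.

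Among 14486 other genes with a mean of at least 100 counts, those most like each gene in log2 CPM over the 10 libraries were named as a description. For Egfr they were Itgb8, an integrin subunit (r = 0.981, and 0.849 without KO), and Gab1, an adaptor of receptor tyrosine kinases (0.976, and 0.811 without KO). Itgb8 was also the second for Tnc (0.961, and 0.825 without KO) after Ppp4r3a (0.972 and 0.931). For Ednrb they were Sparc, a matrix protein gene (0.954, and 0.944 without KO), and the unnamed gene 100862216 (0.952 and 0.925). For Pdpn they were Rhbdf1, an inactive rhomboid gene (0.929, and 0.927 without KO), and Atg16l1, an autophagy gene (0.908 and 0.946). For Fabp7 they were Ctxn2 (0.968, and 0.984 without KO) and Tac1, a tachykinin gene (0.951 and 0.963). The genes for Sox2 were Nr2e1, a nuclear receptor of neural stem cells (0.96, and 0.934 without KO), and Rab22a (0.93 and 0.986). Those for Sox9 were Prex1 (0.974, and 0.938 without KO) and Garem2 (0.966 and 0.94), and those for Pax6 were Ube2v2 (0.915, and 0.851 without KO) and Lrrtm3 (0.914 and 0.834).

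Other genes of radial glia shared part of the pattern. Of 24 tested, 4 rose in KO vs control: Vim (0.66 ± 0.07) and Nes (0.56 ± 0.08), both filament genes, Dbi (0.43 ± 0.08), which encodes the acyl-CoA-binding protein, and Slc1a3, the glutamate transporter (0.37 ± 0.07, named after its value was seen). Their median log2 value was 0.08. In the mean of DKO, TKO and QKO vs KO 5 of the 24 fell, with a median of -0.14: Nes (-0.88 ± 0.06), Vim (-0.84 ± 0.06), the receptor Notch1 (-0.62 ± 0.08) and, named after their values were seen, Dbi (-0.40 ± 0.07) and Slc1a3 (-0.29 ± 0.05). Ptn, a growth factor and the most abundant of the 24, was at -0.03 ± 0.08 and 0.06 ± 0.07. The summed level of the 24 was between 1116 and 1117 nRPKM in control, 1285 and 1309 in KO, 1134 and 1147 in DKO, 1083 and 1087 in TKO, and 1041 and 1052 in QKO.

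Around the receptors, edgeR called 1 pathway gene in KO vs control and 0 in DKO vs KO. Of all genes tested, 0.734% were called in the first and 0.568% in the second. Of 16 tested EGF receptor signalling genes 1 rose in KO vs control, Lrig1, a negative regulator of EGFR (0.40 ± 0.06, edgeR adjusted p = 0.0184), with a list median of 0.04. The ligand genes Tgfa (0.05 ± 0.09) and Hbegf (-0.04 ± 0.09) and the receptor Erbb2 (0.36 ± 0.09, edgeR adjusted p = 0.145) did not pass, and are given here after their values were seen. In DKO vs KO edgeR called 0 of the 16 (1 higher and 3 lower at an unadjusted p under 0.05, and 1 lower by DESeq2), and Grb2, the most abundant, was at 0.10 ± 0.07. Named after their values were seen, the 3 lower were Cbl (-0.67 ± 0.19), Erbb4 (-0.45 ± 0.11) and Erbb2 (-0.23 ± 0.09), and the 1 higher was Hbegf (0.19 ± 0.09). Of 6 endothelin pathway genes edgeR called 0 in DKO vs KO (1 higher and 2 lower at an unadjusted p under 0.05, and 1 higher by DESeq2). Named after its value was seen, the gene higher at that unadjusted p was Edn1, an endothelin gene with a mean of 0.961 nRPKM (1.24 ± 0.35, edgeR adjusted p = 0.187). The most abundant of them, Ece1, which activates endothelins, was at -0.19 ± 0.08.

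Matrix genes related to tenascin-C gave 1 call of 16 in KO vs control, Bcan, a proteoglycan gene (0.90 ± 0.12, edgeR adjusted p = 0.00562), with a list median of 0.20. Ncan, the most abundant, was at 0.50 ± 0.14 (edgeR adjusted p = 0.198). In DKO vs KO 1 of the 16 fell, Itgb8 (-0.45 ± 0.08), and 8 were lower at an unadjusted p under 0.05, with a list median of -0.32. Bcan (-0.65 ± 0.09) and Itgb8 (-0.45 ± 0.07) fell in the mean of DKO, TKO and QKO vs KO. Bcan also fell in QKO vs TKO (-0.77 ± 0.12). Among 6 tested podoplanin partners Msn, which encodes the cytoskeletal linker moesin, was the 1 called gene in DKO vs KO (-0.39 ± 0.06), while Cd9, the most abundant, was at 0.02 ± 0.08. Of 5 other fatty acid and retinoid binding protein genes edgeR called 0 in KO vs control (2 lower at an unadjusted p under 0.05, and 1 lower by DESeq2), with Fabp5 at 0.21 ± 0.18.

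Of 9 other SOX genes 3 rose in KO vs control: Sox10 (1.02 ± 0.16) and Sox8 (0.64 ± 0.08), the relatives of Sox9 in the oligodendrocyte lineage, and Sox6 (0.46 ± 0.06). The same 3 fell in the mean of DKO, TKO and QKO vs KO, by 0.97 ± 0.12, 0.47 ± 0.06 and 0.43 ± 0.05 on the log2 scale. Sox6 fell in DKO vs KO (-0.51 ± 0.06), and Sox8 in QKO vs TKO (-0.46 ± 0.08). Sox4, the most abundant and a gene of young neurons, was at -0.05 ± 0.11 in KO vs control. Of 5 other PAX genes edgeR called 0 in that comparison (2 lower at an unadjusted p under 0.05, and 2 lower by DESeq2), with Pax2 at -1.24 ± 0.26 (edgeR adjusted p = 0.0705).

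Some markers of glia other than radial glia moved in the same libraries. All 5 oligodendrocyte precursor markers rose in KO vs control, led by Olig1 (1.21 ± 0.13), Olig2 (1.11 ± 0.09) and Sox10. Their summed level was between 71.3 and 82.1 nRPKM in control, 147 and 172 in KO, 108 and 121 in DKO, 101 and 112 in TKO, and 65.3 and 73.5 in QKO. Of 6 astrocyte markers 2 rose, Gfap (1.99 ± 0.26) and Aldh1l1 (0.60 ± 0.08), and Gja1, the most abundant, was at -0.25 ± 0.08. The astrocyte list was split, with 3 log2 values above 0, 3 below and a median of 0.11 (3 higher and 1 lower at an unadjusted p under 0.05). The astrocyte sum was between 113 and 118 in control, 132 and 141 in KO, 107 and 112 in DKO, 115 and 120.4 in TKO, and 95.6 and 109 in QKO. No marker of either list was at 0 in both libraries of a genotype, and the part of these cells in the levels of Egfr, Tnc and Sox9 was not tested.

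**Figure D4:**
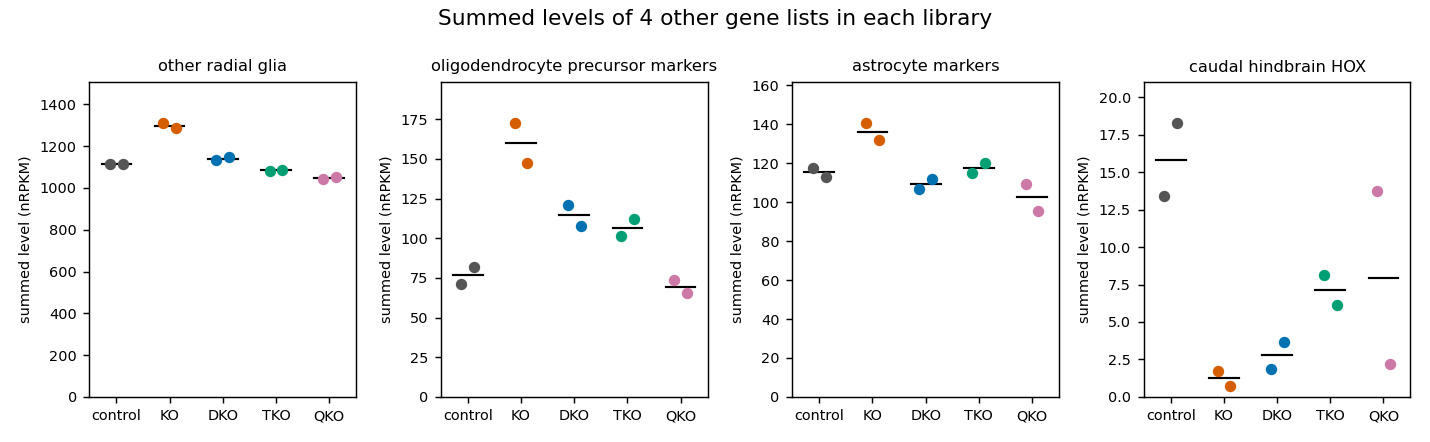
Summed level in nRPKM (vertical axes, from 0) of 24 other radial glia genes, 5 oligodendrocyte precursor markers, 6 astrocyte markers and 11 HOX genes, with 1 point per library and a bar at the mean of each genotype. The first 3 sums are highest in both KO libraries, and the HOX sum is lowest in them.

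Intermediate progenitor markers, which belong to the neuron-producing daughters of radial glia, went the other way in KO: 2 of 6 fell, Eomes (-0.76 ± 0.15) and Neurod1 (-0.33 ± 0.07), with a summed level between 48.3 and 49.6 nRPKM in control and between 39.1 and 39.6 in KO. Of 8 proliferation genes edgeR called 0 in KO vs control (0 at an unadjusted p under 0.05, and 0 by DESeq2), with Top2a at 0.06 ± 0.09. In DKO vs KO edgeR called 0 of the 8 (3 lower at an unadjusted p under 0.05, and 1 lower by DESeq2), with Top2a at -0.22 ± 0.09. Of the 11 HOX genes 6 fell in KO vs control (11 lower at an unadjusted p under 0.05, and 7 lower by DESeq2), with a median log2 value of -3.44. With their mean as a covariate Egfr was at 0.88 ± 0.16 in that comparison (edgeR adjusted p = 0.0437). As said above, that fit cannot separate HOX level from genotype. Erythroid markers summed to between 220 and 267 nRPKM in KO and between 631 and 756 in DKO, where 4 of 5 rose. In TKO, where Egfr was at 4.87 and 5.15 nRPKM, the erythroid sum was between 331 and 342. The part of blood in the falls of Egfr, Ednrb and Tnc from KO to DKO was not tested.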

How the data were processed

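Polyadenylated RNA in 10 libraries of embryonic brain was sequenced as paired ends, per the labels' protocols. The aligner was GSNAP and the build NCBIM37, per the submitters' processing notes. The deposited counts are of reads with a unique alignment to a gene model, and beside them the authors gave RPKM values corrected with a size factor (nRPKM), per the file headers. GSNAP's version, the annotation release and strand handling: not given in the sources used here.

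Entrez identifiers were named from RefSeq (GRCm38.p6), which matched 24998 of 28059 (89.1%). Totals were 31996944 to 54594523 counts. Counts were tested with edgeR 4.0.16 (R 4.3.3): quasi-likelihood test, 5 group means over all 10 libraries, TMM, filterByExpr (18671 genes), Benjamini-Hochberg adjustment over all genes, called at an adjusted p under 0.05. The fit had 5 residual degrees of freedom, and sharing the spread between genes added a median of 6.15. Standard errors come from the F statistic, and the 95% intervals from these errors and both kinds of degrees of freedom. Levels are nRPKM. Chi-square per degree of freedom between the libraries of a group was 7.51 to 19.5, so no pair agreed within sampling noise. The fit was tried on simulated counts with the same spread in all genes (coefficient of variation 0.0821) and changes larger than those of the 8 genes. That trial does not show how well smaller changes are found. Alternatives were RLE factors, DESeq2 1.42.0, no filter, only the groups compared, each library left out, no libraries with high Xist, and a HOX covariate.

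The 8 genes, the lists and the alternatives were chosen with earlier results of these data known, and QKO vs control was added later still. Named genes are the 8, up to 3 called genes per list and comparison with the largest change, each list's most abundant gene, and the 2 most alike genes.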

Additional observations from a re-analysis of the deposited data

How the results depend on the processing

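Over the comparisons, 557 log2 values of the 8 genes under an alternative kept their direction and their side of the threshold, 31 no longer passed, 18 newly passed and 18 changed sign. In KO vs control, 2 of the 8 were called; DESeq2 and no low-count filter called 4, the compared groups alone 6, the HOX covariate 1, no libraries with high Xist 1, and leaving out 1 library 0 to 1. In DKO vs KO, 3 were called, against 4 with DESeq2, no filter or the HOX covariate, 2 with the compared groups alone, 1 without the libraries with high Xist and 1 to 2 when leaving out 1 library. In QKO vs TKO, DESeq2 and no filter called 1 (Ednrb). In the mean of 3 genotypes vs KO, 4 were called, against 5 with DESeq2, no filter or no libraries with high Xist, and 2 to 5 when leaving out 1 library (2 without KO 2). In that mean vs control, 2 were called, against 0 with the HOX covariate, 0 without the libraries with high Xist, 1 with the compared groups alone, and 0 to 2 when leaving out 1 library.

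The changes of sign were all of values that did not pass. With the HOX covariate they were Sox2 in KO vs control (-0.024) and TKO vs DKO (0.030) and Pax6 in QKO vs control (-0.0032), and without the libraries with high Xist Sox2 in TKO vs DKO (0.032). Leaving out 1 library gave ranges that cross 0 in DKO vs KO for Pax6 (-0.043 to 0.12), in QKO vs TKO for Tnc (-0.28 to 0.052), Fabp7 (-0.10 to 0.079), Pax6 (-0.040 to 0.031), Sox2 (-0.18 to 0.094), in QKO vs control for Sox2 (-0.24 to 0.035), in TKO vs DKO for Sox2 (-0.28 to 0.030), Ednrb (-0.16 to 0.040) and in the mean of 3 genotypes vs control for Sox9 (-0.15 to 0.0045), Pax6 (-0.050 to 0.012), Sox2 (-0.082 to 0.020). The causes were not tested.

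All genes called numbered 137 in KO vs control (23 to 691 over the alternatives), 106 in DKO vs KO (42 to 401), 17 in TKO vs DKO (7 to 159), 54 in QKO vs TKO (25 to 160), 183 in the mean of 3 genotypes vs KO (44 to 358), 31 in that mean vs control (9 to 150) and 44 in QKO vs control (16 to 122). No paired analysis was possible because the labels give no replicate numbers and no litter. The library numbers used here follow the order of the samples and pair no libraries across genotypes. A lone library left in a group is assumed to vary like the other groups.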
